A study of Mus musculus with 15 samples.

Results

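CD8 T cells that carried active caspase-1 were compared with CD8 T cells from the same stage of acute graft-versus-host disease (aGvHD) that did not. The comparison holds 6 of the 15 libraries of the series: 3 of CD8 Flica-positive cells and 3 of CD8 Flica-negative cells, chosen by their labels alone. Both groups were sorted on day 7 from the spleens of irradiated BALB/c recipients. These allogeneic recipients had been given C57Bl6 T cells together with C57Bl6 bone marrow. Whether every sorted cell came from the donor was not tested. The study's methods give donors and recipients as 6 to 8 weeks of age and name no engineered allele for these groups. Splenocytes of several diseased mice were pooled for a sort, so a library does not stand for 1 animal. The day 0 control CD8 cells came from C57Bl6 mice without a transplant, and their levels are given beside some genes for orientation.

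Flica is a fluorescent inhibitor that enters cells and binds the active site of caspase-1, the protease that inflammasomes switch on. Active caspase-1 matures the cytokines IL-1β and IL-18 and cleaves gasdermin D, whose pores can end in a lytic form of cell death. CD8 T cells that meet a foreign MHC molecule leave the naive state, switch on cytotoxic granule proteins and inhibitory receptors, and divide. A library of sorted cells is an average over all cells in the gate, so fewer cells of a type and less RNA per cell cannot be told apart in any result below.

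The values are read counts for genes that the authors listed in at least 1 of 4 differential expression tables, divided by the size factor of each library (normalised counts). Of 4567 listed genes, 4286 had at least 10 counts over the 6 libraries and were tested by the quasi-likelihood method of edgeR, and a gene was called at a Benjamini-Hochberg adjusted p below 0.05. Log2 fold changes are Flica-positive over Flica-negative. The authors selected the listed genes on libraries of this series. For 972 genes the selection used this very comparison, and they include 676 of the 929 genes that rose and 34 of the 120 that fell. The others were listed through comparisons with day 0 controls alone. The p-values therefore measure the spread between 3 biological replicates and are not independent evidence, and shares of listed genes are not shares of all genes. Listed genes held from 2503052 to 3147466 counts in the Flica-negative group and from 7310375 to 11046043 in the Flica-positive group, which are parts of libraries and not their depth.

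The label was checked against markers of the T cell and of other cells. Cd8a, the CD8 coreceptor chain, was present in all 6 libraries at 13841, 14967 and 12817 normalised counts in Flica-negative cells and 11437, 11492 and 9348 in Flica-positive ones. The ranges did not overlap, but the difference of -0.37 (log2, 95% interval -0.76 to 0.03) did not pass the test (edgeR, adjusted p = 0.155), and with TMM scaling, defined below, Cd8a was called lower (-0.95, adjusted p = 0.0123). The other 18 of 19 T cell markers had no row in the tables, so they are not analysed here. Markers of several other cell types were higher in the Flica-positive group. All 20 neutrophil markers rose, and their summed level ran from 12207 to 18786 normalised counts in Flica-negative libraries and from 203693 to 405726 in Flica-positive ones, with none of the 20 at 0 in either group. Of 19 monocyte and macrophage markers tested 13 rose, with sums of 17099 to 19508 against 35758 to 63048. Of 17 B and plasma cell markers 4 rose, a share of 23.5% beside the 21.7% of all genes tested, and 2 did without Flica-negative replicate 3 or Flica-positive replicate 2, while their sums ran from 940 to 1325 against 5475 to 10356. Of 11 erythroid markers 10 rose (382 to 3918 against 2223 to 114045), and of 8 mast cell and basophil markers 7 rose (177 to 281 against 2789 to 4624). Of 7 dendritic cell markers 3 rose (42.9%) and 1 fell (14.3%), and of 6 megakaryocyte markers 2 rose (33.3%). Of 5 NK cell markers 1 fell (20%), with NK sums of 51088 to 57519 against 36752 to 47600. Over all genes tested 21.7% rose and 2.8% fell, and in lists this short each gene moves the share widely. The part of such cells in the results below was not tested.

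Of the 4286 genes tested, 1049 (24.5%) differed between the Flica-positive and the Flica-negative group. There were 929 genes that rose in Flica-positive cells (21.7% of the genes tested) and 120 that fell (2.8%). The 2 directions differed in size as well as in number. Of the genes that rose, 608 rose more than 8-fold and 44 less than 2-fold, and their median log2 fold change was 3.62. The 120 genes that fell had a median of -1.01, and 58 of them fell by less than 2-fold. The median over all genes tested was 0.45.

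**Figure D1:**
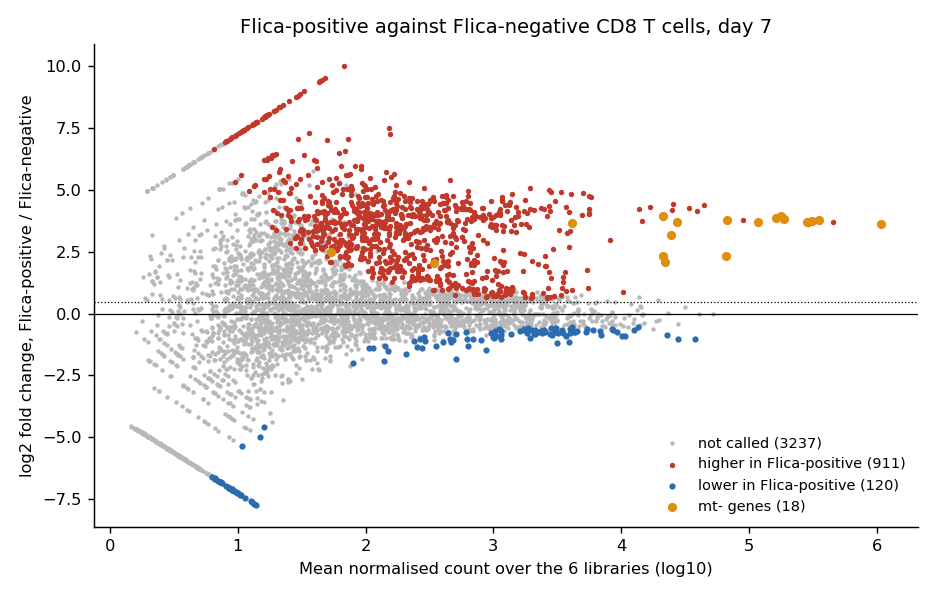
Log2 fold change, Flica-positive over Flica-negative, of each of the 4286 genes tested (vertical axis) against its mean normalised count over the 6 libraries on a log10 scale (horizontal axis); the solid line marks 0 and the dotted line the median of all genes, 0.45. Red points rose and blue points fell by edgeR's quasi-likelihood test, orange points are the 18 mt- genes, and the straight diagonal edges are genes with no count in one group.

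The balance of rises and falls depended on how the libraries were scaled. With trimmed-mean (TMM) scaling over the listed genes in place of the authors' size factors, the median of all genes moved from 0.45 to -0.11, a shift of -0.56, and 721 genes were called higher (16.8%) and 447 lower (10.4%). TMM scaling assumes that most genes do not change, and here it had only genes that the authors selected as differing. How far that selection set the shift was not tested, and all calls with TMM scaling in this report carry this limit. DESeq2's Wald test called 1325 genes (30.9%), 1130 higher (26.4%) and 195 lower (4.55%). The 120 genes that fell with the authors' scaling were called lower with TMM scaling and with DESeq2 as well. Neither is independent support for the falls. TMM scaling moved fold changes downward and could hardly remove a fall, and DESeq2 used the same counts and size factors. A fold change near the median, in either direction, therefore depends on the scaling, and directions that change with it are named beside the genes below.

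Falling genes fell into 2 sets with no gene between them in level. There were 87 with a mean of at least 79.05 normalised counts over the 6 libraries, of which 72 are protein-coding, and 33 with a mean of at most 16.09. The 87 fell by between 0.55 and 2.00 on the log2 scale. The 33 scarce genes had 0 counts in all 3 Flica-positive libraries in 30 cases.

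Genes of the naive and memory T cell programme were among the 87. Il7r encodes the receptor for interleukin-7, which keeps naive and memory T cells alive. It stood at 5507, 3633 and 3994 normalised counts in Flica-negative libraries and at 1965, 1661 and 2126 in Flica-positive ones. The groups did not overlap, and Il7r was 2.28-fold lower in Flica-positive cells (log2 fold change -1.19 ± 0.22 SE, adjusted p = 0.00227). Day 0 control CD8 cells had a mean of 11195, so Flica-positive cells were the lowest of the 3 groups.

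Tcf7 encodes TCF-1, the factor that maintains stem-like T cells. It measured 1678, 1354 and 1537 in Flica-negative and 917, 675 and 673 in Flica-positive libraries, a 2.02-fold fall (adjusted p = 0.00574). The mean of the controls was 28613, so most of the distance from the control level was already present in Flica-negative cells. Satb1, a chromatin organiser of T cells, fell 1.87-fold from 4951, 4998 and 4583 to 2750, 2557 and 2469 (adjusted p = 0.00363). Axin2 is a standard target of TCF/LEF factors and a brake on Wnt signalling. It fell 2.24-fold, from 602, 590 and 737 to 243, 244 and 373 (adjusted p = 0.00943).

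Lef1, the sister factor of TCF-1, fell by 0.81 on the log2 scale, from 3014, 2731 and 2252 to 1692, 1477 and 1392 (adjusted p = 0.0142), although this call was lost without Flica-negative replicate 2 or Flica-positive replicate 2, where the adjusted p reached 0.0649. The antisense gene Lef1os1 fell with it (log2 fold change -1.41, adjusted p = 0.0103, and 0.0515 without Flica-negative replicate 2). Since the strand of the counts is not stated its reads cannot be told apart from those of Lef1. Over the whole list of naive and stem-like T cell genes, 5 of 20 tested members fell (25%) and 2 rose (10%). All genes tested had shares of 2.8% and 21.7%. The list median was -0.43 beside 0.45 for all genes tested. The fifth to fall was Foxo1, which lost its call when any of 5 libraries was left out (adjusted p up to 0.157). Among the pair that rose was Il6ra, a receptor chain for interleukin-6 that myeloid cells also make (log2 fold change 2.91). Ccr7 and Bach2, other genes of the naive state, had log2 fold changes of -0.96 and -1.44 and did not pass the test (adjusted p = 0.108 and 0.113). With TMM scaling both were called lower, and 9 of the 20 in all.

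Transcription factors that T cells induce on activation also fell, and these were lower in day 0 controls than in either day 7 group. Rora, a nuclear receptor of effector T cells, measured 5210, 5944 and 5065 in Flica-negative libraries and 2351, 2325 and 2655 in Flica-positive ones (2.21-fold lower, adjusted p = 0.000885), with a control mean of 252. Bhlhe40, which supports cytokine production, measured 32355, 32449 and 24243 against 15335, 17142 and 15863 (1.84-fold lower, adjusted p = 0.00475), with a control mean of 191. The 3 Flica-positive values of each gene lay below all 3 Flica-negative ones.

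Maf, Nr4a3, Nr4a2 and Irf4 fell by between 0.57 and 0.69 on the log2 scale. Nr4a2 and Nr4a3 are early targets of T cell receptor signalling, and Irf4 scales with its strength. All 4 of these calls were lost when Flica-negative replicate 2 or Flica-positive replicate 2 was left out, and each was also lost without at least 1 other library, with adjusted p of up to 0.167. In the list of effector T cell transcription factors, 6 of 20 fell (30%), 3 rose (15%) and the median was -0.20. All genes tested had shares of 2.8% and 21.7%. With TMM scaling 11 were called lower and 1 higher. Nr4a1 and Id2 did not pass the test, with log2 fold changes of -0.18 and -0.14, and were called lower with TMM scaling (adjusted p = 0.0312 and 0.0447). Tbx21 and Prdm1, which direct terminal effector differentiation, had -0.48 and -0.51 (adjusted p = 0.103 for each), and both were called lower with TMM scaling (adjusted p = 0.0105 and 0.00237). Of the 3 that rose, Batf3 was nearly absent in Flica-negative libraries (4.26, 0 and 0) and measured 48.1, 50.6 and 52.6 in Flica-positive ones. Irf8 and Egr3, the others, were not called with TMM scaling, and Batf3 lost its call without replicate 2 of either group or Flica-negative replicate 3 (adjusted p up to 0.0814). Batf3 and Irf8 are also factors of dendritic cells.

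Several other genes that fell are described next. Card6 was named by the rule for the largest falls, and Sesn3 belongs to the list of antioxidant genes. Tnfaip3 and Dusp5 belong to no list and were chosen after their values were seen. Tnfaip3 encodes A20, which restrains NF-κB. It stood at 41702, 39851 and 30227 in Flica-negative and at 18103, 20043 and 16392 in Flica-positive libraries, a 2.05-fold fall (adjusted p = 0.00203). Dusp5, a phosphatase of ERK, fell 1.85-fold from 14840, 14311 and 12218 to 7378, 7506 and 7480 (adjusted p = 0.00328). Its 3 Flica-positive values lay close together. Card6, a CARD-containing protein, fell 2.49-fold from 1108, 884 and 734 to 435, 376 and 282 (adjusted p = 0.00361). Sesn3, a stress-induced regulator of mTORC1, fell by 0.92 on the log2 scale (adjusted p = 0.01).

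**Figure D2:**
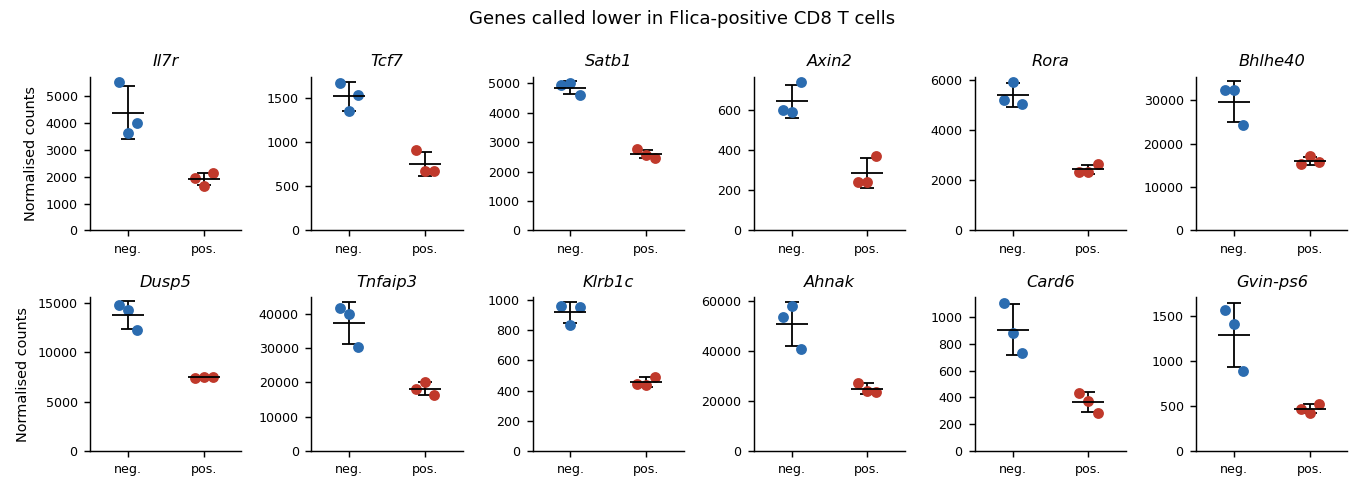
Normalised counts (vertical axis, from 0) of 12 genes that fell in Flica-positive CD8 T cells, each panel with the 3 Flica-negative (blue) and 3 Flica-positive (red) libraries; bars give the mean and SD, n = 3. In each panel all Flica-positive libraries lie below all Flica-negative ones, for example 1661 to 2126 against 3633 to 5507 for Il7r.

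Members of the lists of killer cell receptors, checkpoint receptors and integrins that fell are described next. Klrb1c, which encodes NK1.1, fell 2.01-fold from 963, 836 and 956 to 441, 438 and 491 (adjusted p = 0.00534), and it was nearly absent from day 0 controls at a mean of 15.9. The inhibitory receptor Ctla4 fell 1.66-fold from 11528, 11936 and 10944 to 7093, 7195 and 6444 (adjusted p = 0.00962), a call lost without Flica-negative replicate 2 (0.0618). Icos and Cd69 fell by 0.55 and 0.76 on the log2 scale, and each call was lost without Flica-negative replicate 1 or 2 or Flica-positive replicate 2. Icos also lost it without Flica-negative replicate 3 or Flica-positive replicate 1, and Cd69 without Flica-positive replicate 3 (adjusted p up to 0.137 and 0.124). Among 15 integrins tested, Itga1 and Itga2, whose products bind collagen, and Itgax, which encodes CD11c, fell by 0.71, 1.03 and 0.70 on the log2 scale. Itga2 lost its call without replicate 2 of either group, and Itga1 and Itgax lost theirs without Flica-negative replicate 1 or 2 or Flica-positive replicate 1 or 3 (adjusted p up to 0.124). Itgam, Itga5, Itga2b, Itga9 and Itgb2l rose, and Itgam and Itgb2l are integrins of myeloid cells. Of the 15 integrins 20% fell and 33.3% rose, beside 2.8% and 21.7% of all genes tested.

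Most genes of the cytotoxic programme did not pass the test. Gzmb, which encodes granzyme B, measured 34448, 45578 and 42834 in Flica-negative libraries and 41045, 43149 and 36696 in Flica-positive ones. The ranges overlapped, and the log2 fold change of Gzmb was -0.02 with a 95% interval from -0.42 to 0.37. Prf1, encoding perforin, had -0.05 (-0.47 to 0.36) and Nkg7 -0.06 (-0.50 to 0.39). With TMM scaling these 3 genes had -0.59, -0.63 and -0.64 and did not pass the test. With TMM scaling over genes other than mt- genes, Gzmb and Prf1 were called lower (adjusted p = 0.0447 and 0.0371). Gzma, at -0.26 here, was called lower with TMM scaling (-0.83, adjusted p = 0.0308).

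Of 19 cytotoxic effector genes tested, 2 fell (10.5%, beside 2.8% of all genes tested) and none rose (median -0.13). With TMM scaling 9 were called lower, and 12 when the mt- genes were left out of it. Fasl, the death ligand, fell by 0.81 on the log2 scale, from 2065, 1780 and 1378 to 1164, 1002 and 811 (adjusted p = 0.0271). Ifng fell 1.53-fold from 5207, 4741 and 4357 to 3250, 3435 and 2689 (adjusted p = 0.0404), and this call was lost when any single library was left out (adjusted p up to 0.119). Fasl lost its call without Flica-negative replicate 1 or 2 or Flica-positive replicate 2 or 3 (up to 0.0946).

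Several inhibitory receptors did not pass the test either. Pdcd1, encoding PD-1, measured 8024, 8221 and 8133 against 8149, 7197 and 5717 (log2 fold change -0.21, 95% interval -0.63 to 0.21). Lag3 had 0.12 (-0.28 to 0.52) and Havcr2, encoding TIM-3, -0.07 (-0.49 to 0.35). With TMM scaling Pdcd1 and Havcr2 were called lower (-0.78 and -0.65, adjusted p = 0.0353 and 0.0414). Over the list of checkpoint and costimulatory receptors, 3 of 17 fell (17.6%, beside 2.8% of all genes tested) and none rose. With TMM scaling 10 were called lower (median -0.75). Of 13 cell death genes tested 1 rose (7.69%, beside 21.7% of all genes tested). It was Casp12, at 9.38, 11.8 and 93.3 in Flica-positive libraries and at most 0.933 in a Flica-negative one. This call was lost without any one of the Flica-negative libraries or without Flica-positive replicate 3 (adjusted p up to 0.106), and with TMM scaling 3 of the 13 were called lower.

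Among killer cell lectin-like receptors, Klrb1c fell and Klra2 and Klra17 rose out of 12 tested. These are shares of 8.33% and 16.7%, beside 2.8% and 21.7% of all genes tested. Klra17 is carried by myeloid cells and Klra2 has been described on them, and both were low in Flica-negative cells, Klra2 at 24.5, 24.3 and 12.1 against 155, 260 and 381. The receptors that CD8 T cells share with NK cells had negative log2 fold changes that did not pass the test: Klrd1 -0.68, Klrc2 -0.62, Klrc1 -0.51 and Klrk1 -0.43. With TMM scaling these 4 were called lower, 7 of the 12 receptors in all (median -1.03), and DESeq2 called 4 of the 12 lower. The 20 T cell receptor variable segments tested had a median of -0.95, no single one passed the test by edgeR or DESeq2, and 0 had an unadjusted p below 0.05 in edgeR. Their summed level was 705, 509 and 633 in Flica-negative libraries and 319, 344 and 288 in Flica-positive ones.

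Interferon-inducible genes went both ways. Ifit1bl1 and Ifi208 fell, by 1.63 and 1.08 on the log2 scale, and lost their calls without Flica-negative replicate 1 or 2 or Flica-positive replicate 2 or 3 (adjusted p up to 0.136 and 0.104). The pseudogene Gvin-ps6 fell 2.75-fold from 1567, 1409 and 883 to 464, 418 and 521 (adjusted p = 0.00149), though near-identical family members may share its reads. In the list of 27, 16 rose, among them Ifitm6 (185, 283 and 278 against 4155, 6503 and 6776) and Ifitm3 (636, 822 and 810 against 2355, 3507 and 3946). Tgtp1 rose 2.05-fold (adjusted p = 0.0071), and with TMM scaling it was no longer called (adjusted p = 0.284), and 11 of the 27 were called higher and 3 lower.

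The remaining large falls by the naming rule were Pou6f1, Pdgfb, Sntb1, Tespa1 and Enc1. Tespa1, an adaptor in T cell receptor signalling, fell from 521, 289 and 379 to 188, 187 and 179 (adjusted p = 0.0272). Enc1 fell from 683, 626 and 658 to 281, 358 and 301 (adjusted p = 0.00737). Of these 5 only Enc1 kept its call with each library left out, while the highest adjusted p of the others ran from 0.107 to 0.178. The kinase Txk of T cell receptor signalling fell by 0.96 (adjusted p = 0.00825), a call that Flica-negative replicate 2 decided (0.0555 without it).

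Leaving out 1 library at a time removed many of these calls. The number of falling genes was 39, 23 and 73 without Flica-negative replicate 1, 2 and 3, and 122, 37 and 108 without Flica-positive replicate 1, 2 and 3. There were 19 genes called lower in every one of those 6 fits: Il7r, Tcf7, Satb1, Axin2, Rora, Bhlhe40, Tnfaip3, Dusp5, Card6, Sesn3, Klrb1c, Ahnak, Enc1, Herc3, Irf2bpl, Med12l, Gvin-ps6 and the non-coding Gm44175 and 0610040F04Rik. All 120 stayed lower in point estimate with each alternative in which they were tested. Every alternative used the same counts, and TMM scaling moved fold changes downward, so a change of sign could hardly occur.

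The falling genes of higher level had long transcripts, while the 33 scarce ones had a median of 1872 bases beside 2630.5 for all genes tested. The 72 protein-coding genes among the 87 had a median longest annotated transcript of 4936 bases, compared with 3095.5 bases for 784 protein-coding genes that rose and 3281 for 2064 that were not called. These groups also differed in level, with a median of 2406 normalised counts for the 72, 196 for those that rose and 62.8 for those not called. Compared with 4.46% of those that rose and 6.21% of all protein-coding genes tested, 18 of the 72 (25%) had a transcript that exceeded 8000 bases. They include Ahnak, a giant scaffold protein, with a transcript of 18100 bases, which fell 2.04-fold from 53416, 57925 and 40889 to 27359, 23841 and 23384, and Macf1, a cytoskeletal linker (23495 bases), Kmt2a and Kmt2d, histone methyltransferases, and the kinases Atm and Smg1.

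The relation to length was also read over called and uncalled genes together, and not in uncalled genes alone. Among protein-coding genes with a mean of at least 1000 normalised counts, a class set after the values were seen, the median log2 fold change was 0.51 in 113 genes with transcripts under 2000 bases, 0.30 in 178 genes from 2000 to 4000, -0.03 in 102 genes from 4000 to 6000, -0.30 in 42 genes from 6000 to 8000 and -0.58 in 34 genes over 8000. In the shortest class 48 rose and 3 fell, and in the longest 3 rose and 17 fell. With TMM scaling the medians ran from -0.02 to -1.17. Rescaling moves all genes by nearly the same amount, so it cannot test the order of the classes. RNA integrity was not among the data, and the part of transcript length in the falls was not tested.

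**Figure D3:**
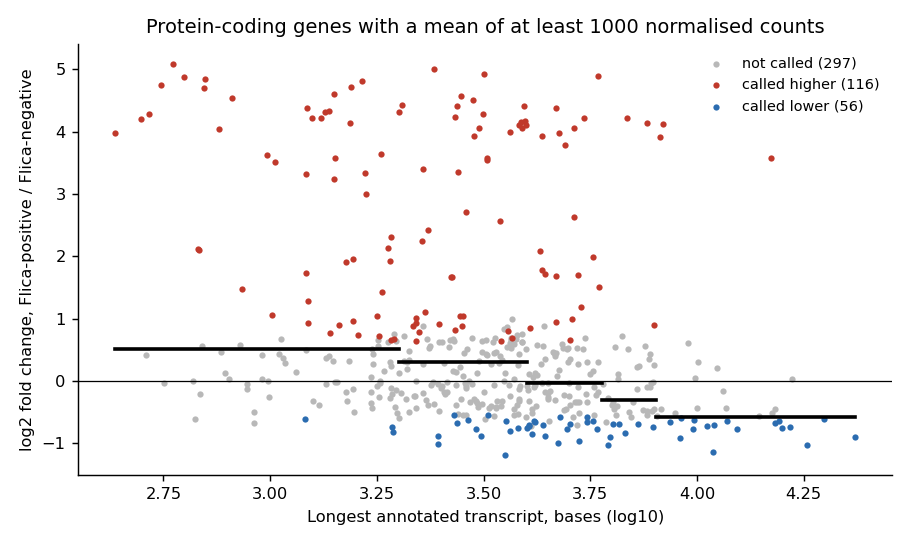
Log2 fold change, Flica-positive over Flica-negative (vertical axis), against the length of the longest annotated transcript in bases on a log10 scale (horizontal axis) for protein-coding genes with a mean of at least 1000 normalised counts; red points rose, blue points fell and grey points were not called. Black bars give the median of each length class, which went from 0.51 under 2000 bases to -0.58 over 8000.

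The 33 scarce genes that fell were of other kinds. Of the 30 with no count in any Flica-positive library, 11 are protein-coding and the rest are mostly antisense, unclassified and pseudogene transcripts. Against a floor of 3 counts per library, they were at least 3.56-fold to at least 7.81-fold lower in Flica-positive cells, and this floor covers counting error only. Boll measured 29.8, 36.4 and 14.7 normalised counts in Flica-negative libraries and 0 in the others (at least 7.61-fold lower, adjusted p = 0.0154). Cpt1b, the muscle form of the enzyme that admits fatty acids to mitochondria, measured 16, 23.3 and 15.5 against 0 (at least 5.16-fold lower, adjusted p = 0.0296), and Il17rb, the receptor for IL-25, 8.52, 21.5 and 13.8 (at least 4.12-fold lower, adjusted p = 0.0422). These genes were near the count minimum, and Boll, Cpt1b and Il17rb were chosen after their values were seen.

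Among the genes that rose, granule proteins and other markers of neutrophils and their progenitors did so in 20 of 20 and 9 of 9 members tested, with medians of 4.40 and 3.62. Ngp, a neutrophil granule protein, measured 3175, 4011 and 4944 in Flica-negative and 49998, 88047 and 114640 in Flica-positive libraries (20.8-fold, adjusted p = 5.14e-06). The day 0 control mean of Ngp was 6.23. Ltf, lactoferrin, rose 21.3-fold from 1493, 2731 and 2601 to 26707, 52774 and 66149, and Mpo and Elane, made at the promyelocyte stage, rose 10.3-fold and 12.3-fold. For all 4 genes Flica-positive replicate 1 was the lowest of its group.

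Because these genes rose together, their promoters were searched for a C/EBP-type motif, the site of factors that drive granule genes, spelled TTGCNNAA or, on the other strand, TTNNGCAA. In the 250 bases before the start, 9.56% of 32851 RefSeq promoters (GRCm38.p6) held it. Of the 20 promoters found for 19 of the neutrophil markers, 8 held it (40%), those of Lcn2, Ltf, Ly6g, Mmp8, Ngp, Retnlg, S100a9 and Stfa1. Over 825 promoters of all genes that rose apart from the mitochondrial ones the share was 11.9%, and over 83 promoters of the 87 genes that fell it was 7.23%. Of 8 promoters of granulocyte progenitor markers 2 held it (25%), those of Fcnb and Ltf. It was in 4 of 11 promoters of B and plasma cell markers (36.4%) and in none of 15 of monocyte and macrophage markers. A match is a description of letters, and no binding was measured. The windows of the 4 holders with the highest mean counts are shown 5′ to 3′ with the motif in capitals. They lie at chr9:110419558-110419807 (Ngp, plus strand), chr3:90695722-90695971 (S100a9, minus strand), chr9:111019042-111019291 (Ltf, plus strand) and chr2:32387740-32387989 (Lcn2, minus strand).
Ngp: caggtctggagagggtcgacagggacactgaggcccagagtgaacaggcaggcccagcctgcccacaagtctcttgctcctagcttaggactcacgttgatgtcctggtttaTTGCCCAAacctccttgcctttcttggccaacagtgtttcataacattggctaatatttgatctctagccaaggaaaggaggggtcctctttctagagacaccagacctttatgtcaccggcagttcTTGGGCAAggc
S100a9: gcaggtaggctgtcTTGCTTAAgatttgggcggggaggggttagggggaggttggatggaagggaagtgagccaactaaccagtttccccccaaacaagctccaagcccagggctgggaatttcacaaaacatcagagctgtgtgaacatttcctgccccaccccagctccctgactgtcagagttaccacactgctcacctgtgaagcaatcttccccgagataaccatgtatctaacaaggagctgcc
Ltf: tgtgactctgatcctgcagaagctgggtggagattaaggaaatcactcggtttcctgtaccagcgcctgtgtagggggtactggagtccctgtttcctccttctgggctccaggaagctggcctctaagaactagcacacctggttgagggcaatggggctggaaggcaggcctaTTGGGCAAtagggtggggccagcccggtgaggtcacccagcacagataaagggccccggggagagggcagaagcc
Lcn2: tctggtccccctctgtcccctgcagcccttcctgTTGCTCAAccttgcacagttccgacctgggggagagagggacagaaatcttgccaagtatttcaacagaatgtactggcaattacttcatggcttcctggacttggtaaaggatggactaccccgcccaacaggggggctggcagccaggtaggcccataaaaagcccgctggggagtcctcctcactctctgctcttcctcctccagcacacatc

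For the falling genes the same windows were searched for CTTTGAT, a TCF/LEF-type motif, or ATCAAAG on the other strand. It was in 2 of the 83 promoters (2.41%), those of Cmah and Kmt2d, compared with 3.21% of all promoters. The windows of Tcf7, Lef1, Axin2, Il7r and Satb1 did not hold these letters.

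Receptors of innate cells rose in most cases. Of 22 Toll-like and C-type lectin receptors 17 rose (median 3.59), among them the LPS coreceptor Cd14 (51.1, 102 and 132 against 1437, 2689 and 3938) and Clec12a. Of 25 Fc and paired Ig-like receptors 22 rose (median 4.06), including Fcer1g, the shared Fc receptor gamma chain, which was 4.30-fold higher (414, 513 and 444 against 1453, 2394 and 2050), and Pirb, which was 17.1-fold higher. The median of these lists lay far above the 0.45 of all genes. With TMM scaling the list medians were 3.03 and 3.47 beside -0.11 for all genes. Rescaling moves all genes by nearly the same amount, so it cannot test this distance.

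Complement genes rose in 11 of 17 members, with a median of 3.83. C3, the central complement component, rose 16.7-fold from 364, 857 and 665 to 5154, 12514 and 13787, and Itgax fell. Among 19 chemokine receptors 5 rose, a share of 26.3% beside the 21.7% of all genes, and their median of 0.29 lay below the 0.45 of all genes. The 5 are receptors of phagocytes (Ccr1, Cxcr2, Fpr1, Fpr2 and Ltb4r1), with Cxcr2 at 37.3, 74.6 and 38.0 against 610, 1101 and 1772. Cxcr3 and Cxcr6, chemokine receptors of T cells, had log2 fold changes of -0.43 and -0.28 and did not pass the test, and with TMM scaling 6 of the 19 were called lower, Cxcr3 among them (adjusted p = 0.0135). Ccl5 and Ccl4, chemokines of effector T cells, had -0.61 and 0.00, and Ccl5, whose groups did not overlap, was called lower with TMM scaling (-1.22, adjusted p = 0.0153). Of 14 chemokines 5 rose (35.7%), namely Cxcl9, Ccl9, Ccl6, Cxcl2 and Ccl2.

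Of the IL-1 family and its receptors 4 of 9 tested members rose, among them Il1b, whose product caspase-1 matures. Il1b measured 35.2, 26.1 and 39.7 against 450, 646 and 1087 (21.5-fold, adjusted p = 1.75e-05), and its natural antagonist Il1rn 0, 6.53 and 0.863 against 93.8, 243 and 151. The decoy receptor Il1r2, which binds IL-1 without signalling, rose 11.9-fold (137, 295 and 236 against 1525, 3373 and 3070), and Il36g 22.5-fold. Il18, the other cytokine that caspase-1 matures, had a log2 fold change of 1.29 with overlapping groups and did not pass the test (95% interval -1.49 to 4.07, adjusted p = 0.484). Il18r1, a receptor chain for IL-18 that T cells carry, fell 1.56-fold from 18367, 14419 and 13344 to 12069, 9217 and 8195 (adjusted p = 0.047), a call lost when any library but Flica-positive replicate 1 was left out (up to 0.162).

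MHC class II genes rose in 9 of 12 tested members. Cd74, the invariant chain, measured 850, 519 and 772 against 6434, 6832 and 7040 (9.48-fold, adjusted p = 5.14e-06), and H2-Aa 254, 135 and 153 against 1893, 2476 and 2078. The transactivator Ciita rose 7.11-fold. H2-Ea stood apart. C57Bl6 mice carry a deletion that silences this gene, while BALB/c mice express it, and the mean of the day 0 C57Bl6 controls was 0. H2-Ea measured 0, 3.73 and 3.45 in Flica-negative libraries and 117, 69.5 and 155 in Flica-positive ones (adjusted p = 0.00137). The origin of these reads was not tested.

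Lipid mediators, iron handling and the oxidative burst followed. The leukotriene pathway gene Alox5ap rose 18.5-fold (211, 279 and 269 against 2755, 5003 and 6321) and Alox5 17.3-fold, and 13 of 20 lipid genes rose. Of 13 iron and heme genes 12 rose (median 4.05), including haptoglobin, Hp (291, 386 and 391 against 4094, 7891 and 9160), and the inducible heme oxygenase Hmox1, which rose 2.60-fold (205, 297 and 225 against 582, 758 and 549). All 3 tested members of the phagocyte NADPH oxidase rose, among them Cybb 15.7-fold and Ncf1 6.55-fold. Of 13 antioxidant genes, 7 rose and Sesn3 fell. Gsr, glutathione reductase, rose 3.19-fold and Prdx5 2.69-fold, whereas Prdx4 rose 1.70-fold here and was not called with TMM scaling (adjusted p = 0.587).

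Glycolytic genes rose in 7 of 10 tested members, in 2 tiers. Hk3 (11.7-fold), Pfkfb4, Pklr, Slc2a6 and Slc16a3 rose by more than 4-fold, and Hk3 is the hexokinase of myeloid cells. Pgam1 (2072, 2383 and 2270 against 3932, 5249 and 4635) and Tpi1 rose 2.05-fold and 1.66-fold, and neither was called with TMM scaling (adjusted p = 0.131 and 0.575). Gapdh had a log2 fold change of 0.26 and Hk2 of 0.31, neither past the test. Only 3 of 52 listed nuclear-encoded respiratory chain genes had rows, and none of the 3 was called.

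Cell division genes lay above 0 as a body, close to the median of all genes. In mitosis and spindle genes 46 of 47 had a positive log2 fold change with a median of 0.61. There 6 rose (12.8%), among them Plk1 (556, 944 and 1300 against 1754, 1576 and 2298) and Ccnb1. In DNA replication and repair 29 of 29 were positive with the same median, and 2 rose (6.90%), among them Rrm2. Both shares lay below the 21.7% of all genes tested. With TMM scaling the medians were 0.08 and 0.05, no member of either list was called higher and 1 mitosis gene was called lower. DESeq2 called 14 mitosis and 6 replication genes higher. The number of mitosis genes called also depended on single libraries, at 22 without Flica-negative replicate 3, 0 without Flica-negative replicate 2, and 1 or 2 without any of the others. Mki67 measured 0.31 (95% interval -0.20 to 0.81).

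**Figure D4:**
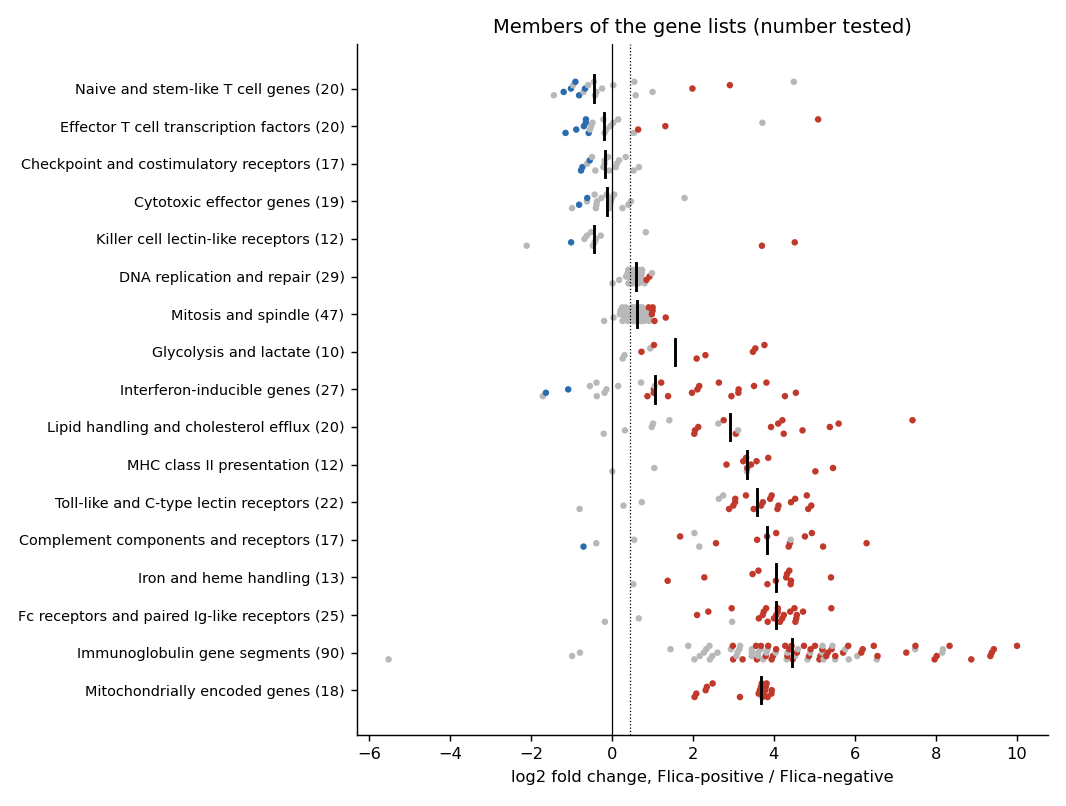
Log2 fold change, Flica-positive over Flica-negative (horizontal axis), of each tested member of 17 gene lists (rows, number tested in brackets); red members rose, blue members fell and grey members were not called, black bars mark list medians and the dotted line the median of all genes, 0.45. T cell lists have medians between -0.45 and -0.13, cell division lists 0.61, and myeloid, antibody and mitochondrial lists above 2.9.

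Antibody genes were among the largest rises. Of 90 immunoglobulin gene segments tested, 44 rose and none fell, and 25 were called without Flica-negative replicate 2. The median was 4.45, or 3.92 with the 16 segments that had no count in one group set at their bound. The summed level was 1219, 1062 and 662 in Flica-negative libraries and 15634, 21264 and 14108 in Flica-positive ones. Single segments differed between replicates. Igkv17-121 measured 79.7, 133 and 713 in the 3 Flica-positive libraries and Ighv14-4 220, 499 and 197, while neither exceeded 4.31 in a Flica-negative one. The constant region Ighg2c, a switched IgG isotype, rose 20.2-fold (196, 358 and 219 against 4758, 6968 and 3913), and Jchain, which joins IgA and IgM and marks plasma cells, 12.1-fold. Variable segments share sequence, so their reads may be split between them.

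Basophil and mast cell genes had the highest median of the cell type lists, 4.75. Prss34 and Mcpt8, proteases of basophils, measured 32.0, 48.5 and 23.3 against 614, 1261 and 941, and 16.0, 14.9 and 18.1 against 315, 451 and 397. Gata2, their transcription factor, rose from 12.8, 4.67 and 2.59 to 340, 360 and 282 (adjusted p = 3.93e-05), and the histamine-forming enzyme Hdc 14.7-fold. Gata2 and Cpa3 were 2 of the 12 largest rises by the naming rule. The others were Ighv14-4, Igkv17-121, Igkv1-117, Igkv14-126, Tmcc2, Stfa2, Lpcat2, Retnlg, Slco4c1 and Inpp5j.

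Erythroid genes differed from the rest in how they were spread over replicates. Hbb-bs, a beta globin, measured 830, 130 and 36.2 in Flica-negative libraries 1, 2 and 3 and 27216, 1758 and 298 in Flica-positive ones. The groups overlapped, and replicate 1 was the highest in both. Hbb-bs was called (adjusted p = 0.0369), but not without Flica-positive replicate 1 (0.291) or Flica-negative replicate 2 or 3 (0.143 and 0.0897). Hba-a1 and Tmcc2 behaved likewise, Tmcc2 at 709, 0 and 135 in Flica-positive libraries. Without Flica-positive replicate 1 or Flica-negative replicate 2, 3 of 11 erythroid markers were called instead of 10, and without Flica-negative replicate 3, 5 were. Car1 kept its call in each case, and it encodes a carbonic anhydrase of red cell precursors (60.7, 38.3 and 23.3 against 844, 509 and 346, adjusted p = 0.000131 with all libraries).

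The mt- genes, which are transcribed from the mitochondrial genome, were set apart. All 18 rose. They took 15.3% to 16.2% of the listed counts in Flica-negative libraries and 51.7%, 48.5% and 42.8% in Flica-positive libraries 1, 2 and 3. Nuclear copies of mitochondrial sequence, described below, held a further 7.74% to 8.30% in Flica-negative libraries. In Flica-positive libraries 1, 2 and 3 these copies held a further 27.9%, 26.4% and 21.9%. The mitochondrial genome codes for subunits of respiratory complexes, for its own ribosomal RNAs and for tRNAs, and its 2 strands are each transcribed as long precursors.

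The mt- genes did not rise equally. Most mRNAs of complexes I, III, IV and V rose by a log2 fold change between 3.62 and 3.95, such as mt-Co2 (46016, 49088 and 46635 against 809733, 704015 and 461583), mt-Cytb (24426, 26713 and 23639 against 431627, 376845 and 249036) and mt-Nd1 (22431, 20965 and 21953 against 419486, 329051 and 261353). The tRNA mt-Ts1 was in the same range at 3.72. Others rose less. mt-Nd5 rose by 2.32 (23203, 22038 and 21081 against 137748, 99828 and 92674), and mt-Nd6, the mRNA encoded on the opposite strand, by 2.35 (7193, 6572 and 7306 against 45505, 29758 and 31867). The ribosomal RNAs mt-Rnr1 and mt-Rnr2 rose by 3.16 and 2.08 and the tRNA mt-Tp by 2.04. With the libraries captured by oligo-dT, RNAs without a stable poly(A) tail are counted less reliably. The ratio of 2 mt- genes does not depend on the scaling of a library, while the size of each rise does, and with TMM scaling mt-Tq was not called (adjusted p = 0.0767) and the other 17 were.

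**Figure D5:**
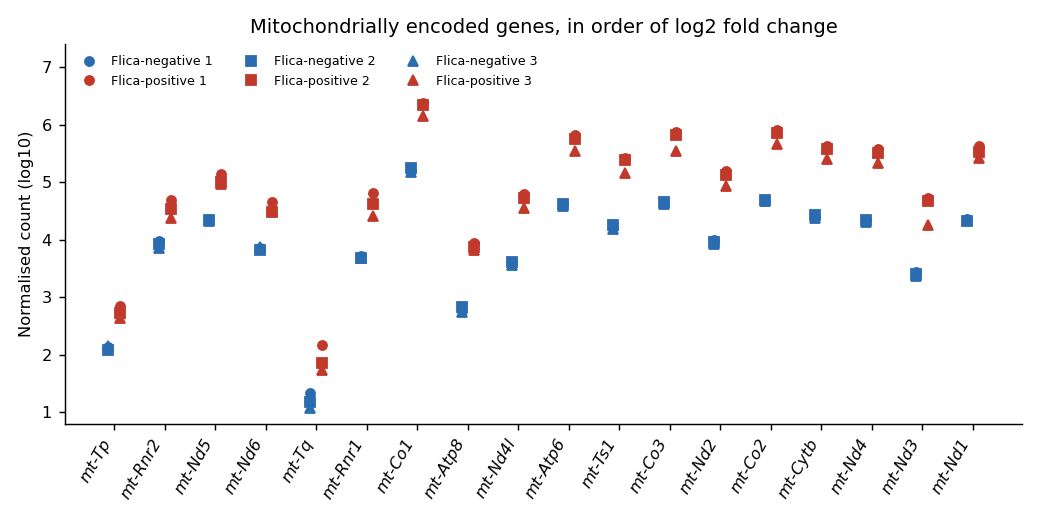
Normalised counts on a log10 scale (vertical axis) of the 18 mt- genes, in order of their log2 fold change from the smallest on the left; blue symbols are Flica-negative and red symbols Flica-positive libraries, with circles, squares and triangles for replicates 1, 2 and 3. Flica-negative libraries lie below all Flica-positive ones, and in Flica-positive cells replicate 1 is the highest for each gene.

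Flica-positive replicates differed in their mt- level by more than Flica-negative ones. The summed normalised count of mt- genes was 432755, 457328 and 414969 in Flica-negative libraries and 6692730, 5812450 and 3743100 in Flica-positive ones. The neutrophil sum ran the other way in the Flica-positive libraries, at 203693, 363452 and 405726 for replicates 1, 2 and 3, and with 3 libraries no relation was tested. Another 8 genes that rose are nuclear copies of mitochondrial sequence, 7 of them side by side on chromosome 1 (GRCm38). Gm28661 had between 1.0007 and 1.0019 times the counts of mt-Co2 in every library, so its counts cannot be told apart from those of the mitochondrial gene. Without the mt- genes and these copies 903 genes rose. Genes for the mitochondrial transcription and translation machinery had no rows among the listed genes and are not analysed here.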

How the data were processed

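RNA from sorted spleen cells was captured with oligo-dT and sequenced in read pairs. The submitters' processing notes name STAR 2.7.1a, DESeq2 and the GRCm38 build, and the counting tool, annotation and strand setting are not given in the sources used here. The authors deposited 4 gene tables that give whole-number read counts for all 15 libraries, for genes with an adjusted p below 0.05 and a large fold change in that table's comparison. The mean signal per gene, as deposited, is the mean of the counts after division by the authors' size factors. The tables also hold the authors' log2 fold changes, standard errors, test statistics and p-values, and further tables hold their enriched terms, and none of these were used.

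Rows of the 4 tables were joined by gene identifier (4567 genes), and 1 size factor per library was solved from them (largest relative error 6.8e-15). Factors were 0.939 to 1.16 for Flica-negative and 0.836 to 0.853 for Flica-positive libraries. Genes with at least 10 counts over the 6 libraries were fitted with edgeR 4.0.16 (limma 3.58.1, R 4.3.3) with 2 groups and no further term, and the test was checked on simulated data. The depth of the libraries cannot be had from selected genes, so it is unknown, and a floor of 3 counts per library stands for a count of 0. All columns of sample values in the tables were mapped to a sample, leaving 0 unused. Same-numbered libraries were checked for pairing, and the result is given with the alternatives. The replicates are labelled biological, but which animals formed each pool is not stated.

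Genes named are the 12 largest rises with a mean of at least 100 normalised counts and the 14 largest falls with a mean of at least 20 among called genes with a symbol (no mt-, Gm or Rik names), up to 4 called and 2 uncalled members with the highest means of each gene list, all members of lists with at most 12 tested, and the mt- genes. Other genes were named after their values were seen. The members and lists were chosen with earlier results of these data known. Transcript-length classes, the split of the falling genes by level, the nuclear copies and the motifs were chosen after seeing the data. Transcript lengths and positions came from GENCODE M21 (GRCm38) and promoters from RefSeq. Alternatives were TMM scaling with and without mt- genes, DESeq2 1.42.0, 2 other filters, all 15 libraries, a replicate block, a threshold of 0.01, a test against a fold of 2, and leaving out each library. Tables and plots used Python 3.11.15, pandas 2.3.3, numpy 2.4.6, scipy 1.17.1 and matplotlib 3.10.9. Some genes that the naming rule covers are not reported here.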

Additional observations from a re-analysis of the deposited data

How the results depend on the processing

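With the authors' size factors 1049 genes were called, 929 higher and 120 lower. The total stayed between 1041 and 1325 with TMM scaling, DESeq2, no filter, a mean of at least 10, all 15 libraries and the replicate block. It was 701 against a fold of 2 and 630 at an adjusted p below 0.01, and ran from 685 to 1010 with 1 library left out, lowest without Flica-negative replicate 2. Genes called higher numbered 610 at that stricter threshold and 662 to 902 with 1 library left out. Genes called lower were the least stable: 447 with TMM scaling, 519 with TMM scaling over genes other than mt- genes, 195 with DESeq2, 271 with all 15 libraries, 17 against a fold of 2, 20 at an adjusted p below 0.01, and 23 to 122 with 1 library left out. The fit against a fold of 2 and the threshold of 0.01 are stricter by construction, TMM scaling moved the median of all genes by -0.56 (-0.64 without mt- genes), and the cause of the other changes was not tested. Of the 120 falls, 75 were called lower in each of the 7 alternatives that change the scaling, tool, filter, samples or block. The TMM fits among these could hardly remove a fall, since they moved fold changes downward. No called gene named here reversed, though every alternative used the same counts. As for pairing, same-numbered Flica-positive and Flica-negative libraries deviated from their group means with correlations of 0.162, 0.0362 and 0.0943 over 3532 genes. The labels link these libraries by number alone. The study describes sorting pooled, stained splenocytes into the groups, so same-numbered libraries may come from the same sort. The main fit did not use such a pairing. With the replicate block 1150 genes were called, 1011 higher and 139 lower, of which 89 were among the 120, and mitosis genes called higher went from 6 to 30 of 47, DNA replication genes from 2 to 9 of 29 and killer cell lectin-like receptors called lower from 1 to 5 of 12. As a hint from the data, 5 of the 6 libraries correlated best with their own number. Depth limits the scarce genes: those with no count in one group rest on a floor of 3 counts, and genes that were not listed are outside these results.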
